A study of Arabidopsis thaliana with 6 samples.

Results

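The CIN-TCP and GRF leaf growth regulators examined here are 10 Arabidopsis thaliana genes, picked by locus out of 38189 genes in the count files. They are the CIN-type TCP genes TCP2, TCP3, TCP4, TCP10 and TCP24, the GROWTH-REGULATING FACTOR genes GRF1, GRF2 and GRF3, the GRF coactivator gene AN3 (also GIF1), and ANT. RNA was sequenced from 10-day-old plants of the Columbia wild type (WT, n = 3) and of the hb34 mutant (n = 3), grown at 22 °C under days of 16 h light and 8 h dark and labelled as mock-treated in both groups. HB34 belongs to the zinc finger homeodomain family of transcription factors, and the series title connects it with jasmonic acid, immunity and growth. No label says what kind of allele hb34 is or whether replicates are separate plantings, so the p-values reflect only the spread among these 6 samples, which may be technical.

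CIN-TCP proteins are DNA-binding factors that end cell proliferation in the growing leaf and promote its differentiation, and TCP4 is a known activator of LOX2, the lipoxygenase gene of the first step of jasmonate synthesis. GRF proteins act with the coactivator AN3 to keep leaf cells dividing, and ANT, an AP2-type factor, likewise prolongs proliferation. MicroRNA miR319 cleaves the transcripts of the listed CIN-TCP genes and miR396 those of most GRF genes, so both branches are set in part after transcription.

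The sites that place these genes under the 2 microRNAs are shown first, since they mark which members share a known post-transcriptional input. The mature microRNAs, read from the RefSeq annotation of TAIR10.1 and written with U, carry their seed (bases 2 to 8) in capitals. MIR319A and MIR319B encode the same mature sequence, and all of miR319a, miR319b and miR319c share 1 seed. The 5p products of MIR396A and MIR396B share another.
miR319a: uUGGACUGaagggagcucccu
miR319c: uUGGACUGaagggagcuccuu
miR396a-5p: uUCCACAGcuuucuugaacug
miR396b-5p: uUCCACAGcuuucuugaacuu

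The best match to miR319a in each CIN-TCP transcript, scored as 1 per mismatch and 0.5 per G:U pair without gaps, lay in coding sequence and within 1 exon in all 5. Capitals mark bases that form a Watson-Crick pair with the microRNA. The sites were at chr4:10163402-10163422 (minus strand), chr1:19850522-19850542 (minus), chr3:5063300-5063320 (plus), chr2:13221210-13221230 (minus) and chr1:10628989-10629009 (minus), in the order printed.
TCP2: caGGgGgaCCCTTCAGTCCAA
TCP3: gaGGgGtcCCCTTCAGTCCAt
TCP4: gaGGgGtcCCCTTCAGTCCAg
TCP10: AaGGgGtaCCCTTCAGTCCAg
TCP24: taGGgGgaCCCTTCAGTCCAA

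Scores were 3.5 for TCP10, 4.0 for TCP4 and 4.5 for the other 3. Bases without a Watson-Crick pair, which include G:U pairs, clustered opposite the 3′ part of the microRNA. TCP2 and TCP24 also had a Watson-Crick pair with its first base, and TCP4 and TCP10 had a G:U pair there. In the CIN-TCP genes TCP5, TCP13 and TCP17 the best match scored 8.5, 7.5 and 6.0. The GRF sites for miR396a, scored with 1 further point for an extra target base, scored 2.5, 2.5 and 2.0. They lay in coding sequence at chr2:9729944-9729965 (plus strand), chr4:17726404-17726425 (minus) and chr2:15271745-15271766 (minus), and each has 1 extra target base.
GRF1: tcGTTCAAGAAAGcCTGTGGAA
GRF2: tcGTTCAAGAAAGcCTGTGGAA
GRF3: CcGTTCAAGAAAGcCTGTGGAA

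The GRF1 and GRF2 sites are identical. Among the GRF genes that are not members, GRF4, GRF7, GRF8 and GRF9 had sites that scored 2.0 to 3.0, while GRF5 and GRF6 scored 6.5 and 5.5. AN3 and ANT scored 6.5 and 7.0. Of the other GIF genes, GIF2 scored 7.0 and GIF3 4.5, both in noncoding sequence. A match is a description of the letters and no evidence of cleavage in these plants.

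The mutant libraries carried the labelled defect. HB34 lay between 83.3 and 93.0 CPM (counts scaled to a common library size) in WT and between 1.02 and 2.27 CPM in hb34. Library totals ran from 17562497 to 19670468 counts, and 3 counts, used as the floor of detection, corresponded to 0.153 to 0.178 CPM (counting error only). Of all genes 17905 had enough counts to be tested. With edgeR's quasi-likelihood test and an adjusted p (Benjamini-Hochberg over all genes tested) under 0.05, 675 were higher and 447 lower in the mutant, or 536 and 615 with upper quartile scaling. The labels call the material leaves. The mesophyll genes RBCS1A, CAB1, CAB3 and CA1 together made up 59523 to 67161 CPM for the WT libraries and 54083 to 61840 CPM for the mutant ones. The shoot meristem genes WUS and CLV3 had 0 counts in every library, and 6 of 7 root markers and 3 of 4 flower markers were too low to be tested. The remaining root marker PHO1 (8.96 to 16.4 CPM in WT, 15.1 to 19.9 CPM in the mutant) and the floral gene AG (1.38 to 1.91 against 0.411 to 1.48 CPM) did not pass, nor did CAB3 in edgeR (4524 to 5494 against 3323 to 3866 CPM, adjusted p = 0.0689; DESeq2 0.0360). In bulk tissue, fewer cells of a type and less RNA per cell cannot be told apart.

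None of the leaf growth regulators was called different between hb34 and WT. Of the 10 genes 9 passed the filter on low counts and 0 of these were past the threshold, against 6.27% of all genes tested. At an unadjusted p under 0.05 edgeR also had 0 of 9, against 29.7% of all genes. DESeq2 gave an adjusted p to 8 and called 0 of them, and limma-voom 0 of 9. CPM of the 2 groups overlapped for all 10 genes, whereas 35.3% of all genes tested had groups that did not overlap. The median log2 fold change (hb34 minus WT throughout) of the 9 was -0.08, beside 0.01 over all genes tested, with 7 negative and 2 positive values. The summed level of all 10 ran from 232.3 to 242.6 CPM in WT and from 187.2 to 259.3 CPM in hb34. These are statements about detection: how large a change each gene's data still allow is given by its 95% interval below.

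**Figure D1:**
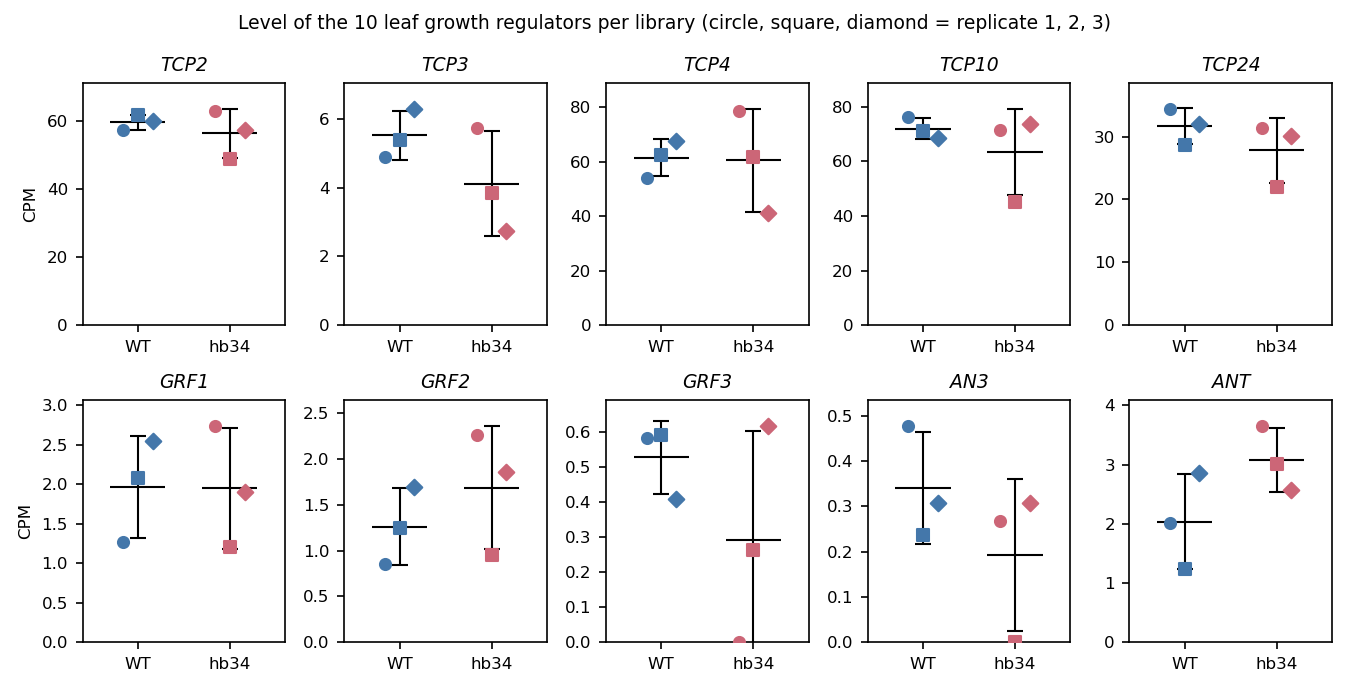
CPM of the 10 genes in each library (y axis, from 0, a scale of its own for each gene) by genotype (x axis). Points are libraries, with circle, square and diamond for replicates 1, 2 and 3; the horizontal line is the mean and the bar the SD (n = 3). The groups overlap for every gene, and TCP4 spans 41.1 to 78.7 CPM within hb34.

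TCP4 (gene-AT3G15030, chromosome 3, 5061681 to 5064152, plus strand) is the best known of the miR319-controlled TCP genes. It had 54.2, 62.7 and 67.9 CPM in WT replicates 1 to 3 and 78.7, 62.0 and 41.1 CPM in hb34 replicates 1 to 3. Both the highest and the lowest of the 6 libraries were mutants, so the mutant libraries enclosed the WT range. Means were 61.6 ± 6.88 and 60.6 ± 18.9 CPM (SD, n = 3 each), with a log2 fold change of -0.02 (SE 0.228, edgeR adjusted p = 0.952). The 95% interval runs from 0.681 to 1.42 times the WT level.

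TCP2 (gene-AT4G18390, chromosome 4, 10162922 to 10165583, minus strand), which restrains leaf margin growth together with TCP4, stood at 57.4, 61.7 and 60.0 CPM for the WT libraries and at 63.1, 48.7 and 57.3 CPM for the mutant ones. Mutant replicate 2 lay below the WT libraries and mutant replicate 3 just under the lowest of them. The log2 fold change was -0.08 (SE 0.127, edgeR adjusted p = 0.686). Its interval, 0.769 to 1.16 times WT, was the narrowest of the 9 tested members.

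TCP10 (gene-AT2G31070, chromosome 2, 13220478 to 13222609, minus strand) stood at 76.2, 71.3 and 68.5 CPM for the WT libraries and at 71.5, 45.2 and 73.6 CPM for the mutant ones. Mutant replicates 1 and 3 lay inside the WT range and replicate 2 below it. The log2 fold change was -0.18 (SE 0.189, edgeR adjusted p = 0.539), and the interval ran from 0.650 to 1.19 times WT.

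TCP24 (gene-AT1G30210, chromosome 1, 10627185 to 10630630, minus strand) repeated this arrangement. It stood at 34.4, 28.6 and 32.0 CPM for the WT libraries and at 31.4, 22.0 and 30.1 CPM for the mutant ones, with mutant replicate 2 again alone below WT. The log2 fold change was -0.19 (SE 0.166, edgeR adjusted p = 0.469), with an interval from 0.671 to 1.15 times WT.

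TCP3 (gene-AT1G53230, chromosome 1, 19849788 to 19851725, minus strand), known for acting on boundary genes of the shoot, was the weakest of the 5. It stood at 4.88, 5.40 and 6.28 CPM for the WT libraries and at 5.74, 3.85 and 2.72 CPM for the mutant ones. Here mutant replicates 2 and 3 lay below WT and replicate 1 within it. The log2 fold change of -0.43 (SE 0.282, edgeR adjusted p = 0.335) has an interval from 0.471 to 1.17 times WT. Without hb34 replicate 3 the value was -0.20. TCP3 shares sequence with AT1G53233 on the other strand. No source used here says whether counting was by strand, so reads of the pair may be mixed.

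The GRF genes had low counts in every library. GRF1 (gene-AT2G22840, chromosome 2, 9728480 to 9731301, plus strand) was counted 24, 35 and 50 times for the WT libraries and 51, 23 and 37 times for the mutant ones, that is 1.27 to 2.55 and 1.21 to 2.74 CPM. The groups covered nearly the same range. Its log2 fold change was -0.02 (SE 0.383, edgeR adjusted p = 0.981), and the interval reaches from 0.533 to 1.83 times WT.

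GRF2 (gene-AT4G37740, chromosome 4, 17725337 to 17727909, minus strand) was counted 16, 21 and 33 times for the WT libraries and 42, 18 and 36 times for the mutant ones. Mutant replicates 1 and 3 exceeded every WT library and replicate 2 lay among them. The log2 fold change was 0.41 (SE 0.410, edgeR adjusted p = 0.522; 0.688 to 2.58 times WT).

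GRF3 (gene-AT2G36400, chromosome 2, 15270088 to 15273115, minus strand) was counted 11, 10 and 8 times for the WT libraries and 0, 5 and 12 times for the mutant ones. The lowest level was in mutant replicate 1 and the highest in mutant replicate 3. The interval of 0.160 to 2.00 times WT (log2 fold change -0.80, SE 0.782, edgeR adjusted p = 0.508) leaves room for a change of either sign. The annotated spans of GRF1 and GRF3 overlap genes on the other strand, with the same limit as for TCP3.

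AN3 (gene-AT5G28640, chromosome 5, 10647467 to 10650066, minus strand) was the 1 member not tested. It was counted 9, 4 and 6 times for the WT libraries and 5, 0 and 6 times for the mutant ones, or 0.340 ± 0.123 and 0.192 ± 0.168 CPM (SD, n = 3 each). These levels are within a few counts of the floor, and a difference was not detectable at this depth.

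ANT (gene-AT4G37750, chromosome 4, 17739514 to 17742407, plus strand) had the smallest p of the 9 tested. It was counted 38, 21 and 56 times for the WT libraries and 68, 57 and 50 times for the mutant ones, with 2.01, 1.25 and 2.86 against 3.65, 3.01 and 2.57 CPM. Mutant replicates 1 and 2 lay above all WT libraries, and mutant replicate 3 lay below WT replicate 3. The log2 fold change was 0.57 (SE 0.320, unadjusted p = 0.113 and adjusted p = 0.267 in edgeR), with an interval of 0.888 to 2.49 times WT.

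**Figure D2:**
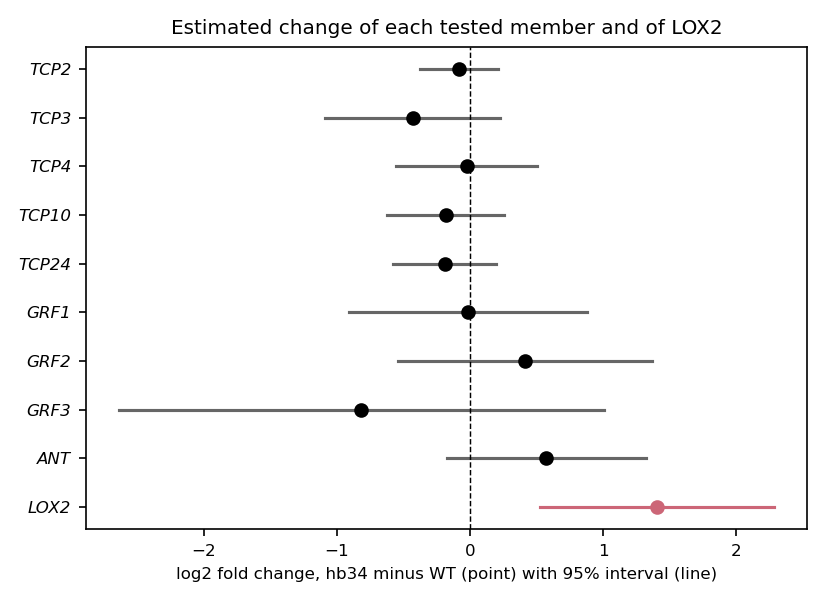
Log2 fold change, hb34 minus WT (x axis), of the 9 tested members and of LOX2 (y axis); points are estimates and lines 95% intervals from the edgeR fit over all genes. Every member's interval includes 0, from the narrow one of TCP2 to that of GRF3, while that of LOX2 lies above 0 before adjustment over all genes.

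Levels between genes were compared per kilobase of exon. In WT the order was TCP10 (35.7 ± 1.94 CPM per kilobase, SD, n = 3), TCP2 (31.5 ± 1.15), TCP4 (25.8 ± 2.88), TCP24 (18.0 ± 1.65) and TCP3 (2.99 ± 0.386). ANT (0.947 ± 0.375), GRF1 (0.931 ± 0.307), GRF2 (0.599 ± 0.199), GRF3 (0.277 ± 0.0544) and AN3 (0.140 ± 0.0508) followed on the same scale. WT ranges of neighbours in this order did not overlap for TCP10 down to ANT, or for GRF2, GRF3 and AN3. ANT and GRF1, and GRF1 and GRF2, overlapped and are not ordered by these data. In hb34 the 4 abundant TCP genes had means of 31.5 ± 7.84 CPM per kilobase for TCP10, 29.7 ± 3.80 for TCP2, 25.4 ± 7.89 for TCP4 and 15.8 ± 2.91 for TCP24.

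In hb34 replicate 2, 4 of the 9 tested members (TCP2, TCP10, TCP24 and GRF1) had their lowest level of all 6 libraries. The same held for 28.1% of all genes tested. AN3, which was not tested, was also lowest there, at 0 counts. The median deviation of the 9 tested members from their WT mean was -0.50 in this library on the log2 CPM scale, against 0.08 in hb34 replicate 1 and 0.01 in hb34 replicate 3. In WT replicate 3 it was 0.15. The median over all tested genes was between -0.01 and 0.01 in each of the 6 libraries. Scaling keeps that median near 0, so it is no yardstick for a median of 9 genes. How many of all genes lay as low in hb34 replicate 2 was not counted. The main axis of a principal component analysis of log2 CPM carried 55.5% of the variance. On it the other mutant libraries lay at 8.53 and 17.6, and hb34 replicate 2 at 82.1. With that library left out TCP2 and TCP10 had log2 fold changes of 0.014 and 0.013, and TCP24 had -0.044. TCP4 and TCP3 were lowest instead in hb34 replicate 3.

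**Figure D3:**
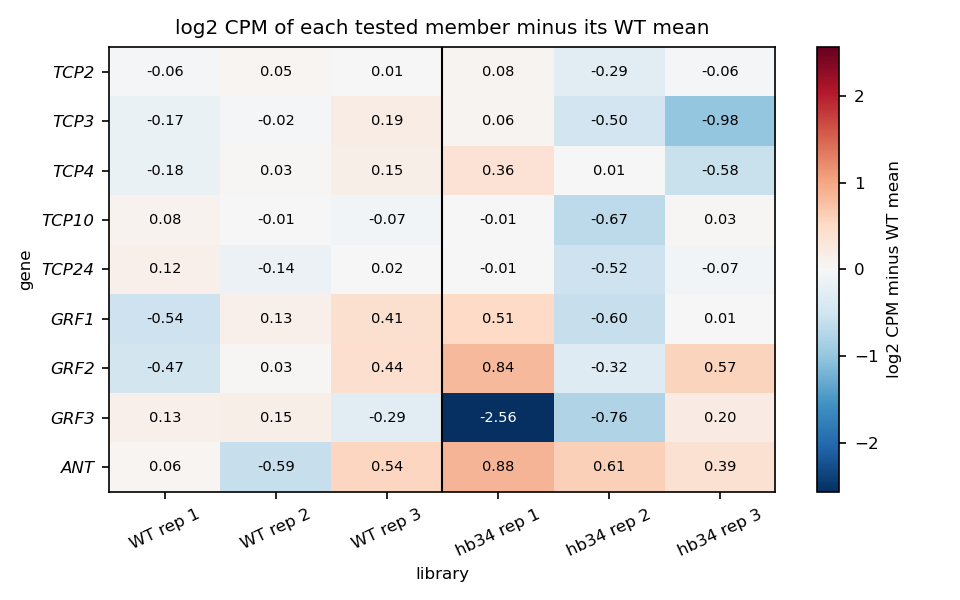
Log2 CPM of each tested member minus its WT mean (colour and printed value) for the 9 genes (rows) in the 6 libraries (columns). TCP2, TCP10 and TCP24 are lowest in hb34 replicate 2, TCP3 and TCP4 in hb34 replicate 3; the value of GRF3 in hb34 replicate 1 rests on 0 counts.

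LOX2, the target that links TCP4 to jasmonate synthesis, is set beside TCP4 as its known target. LOX2 stood at 86.6, 94.0 and 155.1 CPM for the WT libraries and at 203.2, 477.7 and 208.1 CPM for the mutant ones. All mutant libraries lay above WT, yet LOX2 did not pass the test (log2 fold change 1.40, SE 0.378, edgeR adjusted p = 0.0657). With DESeq2 its adjusted p was 0.00206, while leaving out hb34 replicate 2 gave a log2 fold change of 0.88 with an edgeR adjusted p of 0.0480. Over its 16 alternatives the adjusted p ran from 0.00206 to 0.234. Within WT both genes were lowest in replicate 1 and highest in replicate 3. In the mutant LOX2 was highest in replicate 2, where TCP4 had 62.0 CPM, within the WT range. In hb34 replicates 1 and 3 LOX2 was nearly equal while TCP4 was 78.7 and 41.1 CPM. Whether LOX2 varied with TCP4 between libraries was not tested.

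The window before the LOX2 start is printed because it holds the letters TCP factors are known to bind. It covers the 250 bases before the annotated start, chr3:16524995-16525244 on the plus strand of TAIR10.1. Capitals mark GGACCA, searched on both strands. This motif overlaps GGNCC, the wider TCP core, which was also searched.
LOX2 upstream: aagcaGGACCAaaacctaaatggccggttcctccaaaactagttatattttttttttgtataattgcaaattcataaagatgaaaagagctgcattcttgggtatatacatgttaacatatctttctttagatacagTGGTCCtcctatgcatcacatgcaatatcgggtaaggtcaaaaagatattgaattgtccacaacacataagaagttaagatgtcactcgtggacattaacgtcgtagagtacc

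GGACCA occurred 2 times in this window, once on each strand. It occurred in the same window of 5.90% of 27443 protein-coding genes, and GGNCC in 27.2%. Of the 10 members GRF2 had 1 GGACCA in its window and the other 9 had 0. TCP2 and GRF2 each had 1 GGNCC. Of the listed CIN-TCP targets described next, HAT2 had 1 match to each motif in its window and ARR16 had 0 to either.

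Of 8 genes listed as targets of CIN-TCP factors, 1 rose and 0 fell, against 3.77% of all genes called higher and 2.5% called lower. The 8 had a median log2 fold change of 0.03, beside 0.01 over all genes. The gene that rose was HAT2, a homeodomain-leucine zipper gene that responds to auxin, with 7.26, 6.88 and 6.85 CPM for the WT libraries and 10.8, 13.5 and 10.2 CPM for the mutant ones (log2 fold change 0.72, SE 0.167, edgeR adjusted p = 0.0484). Its groups did not overlap, but the call was near the threshold and was lost in 10 of 16 alternatives, among them each library left out in turn, with adjusted p from 0.0124 to 0.172. ARR16, a cytokinin response regulator gene that TCP4 activates, was chosen after its values were seen. It stood at 39.9, 30.8 and 24.5 CPM for the WT libraries and at 17.3, 7.55 and 17.5 CPM for the mutant ones. All mutant libraries were below WT, without passing (log2 fold change -1.17, SE 0.326, edgeR adjusted p = 0.0710). DESeq2 called it (adjusted p = 0.00706), as did edgeR without hb34 replicate 2 (log2 fold change -0.86, adjusted p = 0.0385). Over its 16 alternatives the adjusted p ran from 0.00706 to 0.242. ARR16 and LOX2, both in the list of CIN-TCP targets, had values on opposite sides of WT, and neither passed in edgeR. Of the 8 listed targets, 2 had all mutant libraries above WT, 2 had all below, and 4 overlapped. Over all genes tested, 35.3% had groups that did not overlap, in either direction. Whether TCP4 activity differed was not tested.

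Proteins that work with TCP factors or AN3 were represented by 6 genes, 4 of them tested, of which 1 rose and 0 fell (median log2 fold change 0.86). Over all genes tested 3.77% were called higher and 2.5% lower. SYD, a SWI/SNF chromatin remodelling ATPase that has been tied to AN3, stood at 9.91, 9.78 and 13.5 CPM for the WT libraries and at 27.4, 37.3 and 17.2 CPM for the mutant ones. The groups did not overlap, and it passed at 2.46 times the WT level (SE 0.290 on the log2 scale, edgeR adjusted p = 0.0448). The call was lost without WT replicate 1, 2 or 3 and without hb34 replicate 1, with limma-voom and with a replicate block (adjusted p 0.000635 to 0.183 over 16 alternatives). BRM, the related ATPase that acts with TCP4 on ARR16, was chosen after its values were seen, and stood at 12.6, 11.0 and 17.6 CPM for the WT libraries and at 26.8, 41.4 and 20.2 CPM for the mutant ones (log2 fold change 1.10, SE 0.292, edgeR adjusted p = 0.0641; DESeq2 0.00559). DESeq2 called 3 of these genes higher, namely SYD, BRM and the corepressor gene TPL (log2 fold change 0.63, SE 0.181, edgeR adjusted p = 0.0758; DESeq2 0.0249), the last also chosen after its values were seen. Of the 23730 genes with any counts DESeq2 called 1651 higher. SYD and BRM were highest in hb34 replicate 2, the mutant library farthest from WT on the main axis of the principal component analysis. How many of all genes were highest there was not counted. The TCP repressor gene TIE1, likewise chosen afterwards, was counted 2, 5 and 1 times in WT and 0 times in the mutant, too few to be tested.

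**Figure D4:**
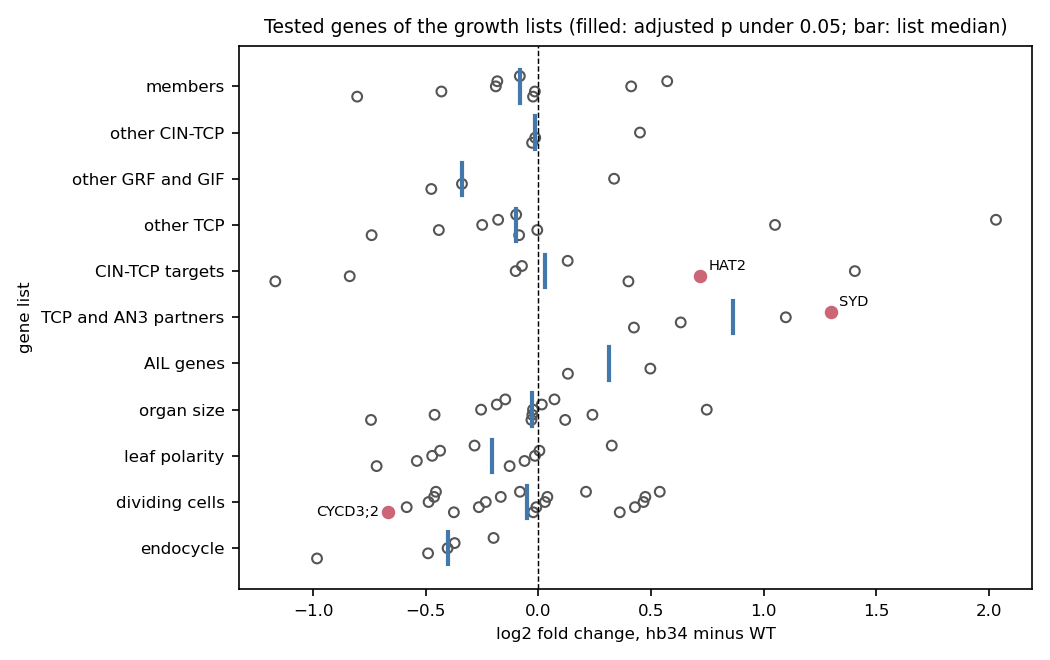
Log2 fold change, hb34 minus WT (x axis), of every tested gene in 11 growth lists (y axis, "members" being the 9 tested regulators). Filled points have an adjusted p under 0.05 in edgeR, open points do not, and the bar is the list's median. HAT2 and SYD are the 2 filled points above 0 and CYCD3;2 the 1 below.

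The relatives of the members were likewise without a call in edgeR. Over all genes tested, 6.27% were called and 29.7% had an unadjusted p under 0.05 in edgeR. Of the CIN-TCP genes outside the miR319-targeted group all 3 were tested and 0 passed (1 had an unadjusted p under 0.05, and neither DESeq2 nor limma-voom called any). TCP13 stood at 13.8 to 15.4 CPM for the WT libraries and at 17.6 to 24.0 CPM for the mutant ones, with no overlap (log2 fold change 0.45, SE 0.162, edgeR adjusted p = 0.118). Of 8 other GRF and GIF genes 3 were tested and 0 passed in any of the 3 tools. GIF2, a paralogue of AN3, stood at 12.0 to 14.2 CPM for the WT libraries and at 14.3 to 18.7 CPM for the mutant ones (edgeR adjusted p = 0.191). Of 16 further TCP genes 9 were tested and 0 passed in edgeR (4 at an unadjusted p under 0.05). Among these TCP7, a class I gene, stood at 44.8 to 56.4 CPM for the WT libraries and at 18.8 to 35.6 CPM for the mutant ones (log2 fold change -0.74, SE 0.243, edgeR adjusted p = 0.0988; DESeq2 0.0371). DESeq2 also called TCP14, another class I gene, in the opposite direction. Chosen after its values were seen, TCP14 stood at 15.5, 14.7 and 13.8 CPM for the WT libraries and at 20.2, 50.5 and 20.5 CPM for the mutant ones (log2 fold change 1.05, SE 0.358, edgeR adjusted p = 0.107; DESeq2 0.0271). Without hb34 replicate 2, its highest library, the log2 fold change was 0.47. The 6 loci of miR319, miR396 and miR164 precursors had at most 4 counts in any library and were not tested, so these libraries carry no measurement of the microRNAs.

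Of 20 genes of dividing cells 1 fell and 0 rose (median log2 fold change -0.05). Over all genes tested 2.5% were called lower and 3.77% higher. At an unadjusted p under 0.05 edgeR had 3 lower and 0 higher, against 29.7% of all genes in either direction. CPM of the groups did not overlap for 4 lower genes and 1 higher gene, against 35.3% of all genes in either direction. The gene that fell was CYCD3;2, a D-type cyclin gene that holds leaf cells in the mitotic cycle. It stood at 34.6, 33.6 and 30.2 CPM for the WT libraries and at 21.5, 18.7 and 21.7 CPM for the mutant ones. The groups did not overlap (log2 fold change -0.67, SE 0.128, edgeR adjusted p = 0.0317). The call was lost without WT replicate 1 or 2, without hb34 replicate 1 or 3 and with a replicate block (adjusted p 0.00096 to 0.140 over 16 alternatives). The list's summed level was 102.4 to 111.6 CPM for the WT libraries and 91.5 to 95.9 CPM for the mutant ones. Without CYCD3;2 the other 19 genes summed to 68.8 to 81.4 CPM for the WT libraries and 69.7 to 77.2 CPM for the mutant ones, so the groups overlapped.

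Other growth lists had no call in edgeR. Over all genes tested, 29.7% had an unadjusted p under 0.05 in edgeR, the share to set beside the counts below. Of 17 organ size genes 13 were tested (1 at an unadjusted p under 0.05), and ARF2, an auxin response factor gene that limits organ growth, stood at 99.1 to 132.1 CPM for the WT libraries and at 152.9 to 246.7 CPM for the mutant ones (log2 fold change 0.75, SE 0.203, edgeR adjusted p = 0.0677; DESeq2 0.0136). Of 10 leaf polarity genes all were tested (2 at an unadjusted p under 0.05), and YAB5, a YABBY gene of the lower leaf side, stood at 24.0 to 26.9 CPM for the WT libraries and at 16.0 to 19.6 CPM for the mutant ones (log2 fold change -0.47, SE 0.135, edgeR adjusted p = 0.0746; DESeq2 0.0469). All 5 endocycle genes had a negative log2 fold change (median -0.40, 3 at an unadjusted p under 0.05, 0 past the threshold). The smallest p was that of DEL1, a repressor of endocycle entry, with 1.66 to 2.20 CPM for the WT libraries and 0.792 to 1.07 CPM for the mutant ones (edgeR adjusted p = 0.0765). Of 6 AIL genes related to ANT 2 were tested with 0 past the threshold, and AIL5 (log2 fold change 0.50, SE 0.717, edgeR adjusted p = 0.663) reached 2.80 CPM in hb34 replicate 2 and 1.28 CPM or less elsewhere.

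Genes of organ boundaries and meristems mark young tissue. None of 9 boundary and KNOX genes had enough counts to be tested, and 3 were at 0 in all libraries. Their summed level was 0.534 to 1.43 CPM for the WT libraries and 0.161 to 0.422 CPM for the mutant ones, so the groups did not overlap. KNAT6, a KNOX gene chosen after its values were seen, was counted 20, 4 and 10 times in WT and 3, 2 and 1 times in the mutant. Without it the other 8 genes summed to 0.297 to 0.409 CPM for the WT libraries and 0 to 0.317 CPM for the mutant ones, so the groups overlapped. The defining meristem markers WUS and CLV3 were at 0 in both groups. CLV1, also used elsewhere in the plant, stood at 71.9 to 94.7 CPM for the WT libraries and at 88.2 to 103.9 CPM for the mutant ones (edgeR adjusted p = 0.223). The part of young tissue in the GRF, AN3 and ANT levels was not tested.

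Over the 6 libraries the genes whose pattern was most like that of TCP4 were PRP4, POLA2 and OTP87, at a root mean square difference of 0.0501, 0.0719 and 0.0763 in log2 CPM centred on each gene's mean. They were the closest of 15469 genes whose log2 CPM averaged 1 or more. PRP4, POLA2 and OTP87 were picked for likeness to TCP4 in the same 6 libraries, so their fold changes were bound to lie near that of TCP4. Their log2 fold changes were 0.03, 0.05 and -0.03, with edgeR adjusted p of 0.951, 0.901 and 0.951.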

How the data were processed

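Raw counts, deposited by the authors as 1 table per library, were used unchanged. Per the file headers, a gene's count covers its exons. The submitters' processing notes mention TAIR10, HISAT2 2.1.0 and DESeq2 1.30.1, but not their roles. No source used here says which program counted the reads, or whether by strand. All 37884 genes of the files on the 5 chromosomes lay inside the same gene of RefSeq TAIR10.1.

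Sample titles gave the genotypes. After filterByExpr (10 counts, total 15) and TMM scaling, edgeR 4.0.16 in R 4.3.3 compared hb34 with WT (glmQLFit with legacy FALSE, genotype alone, two-sided), adjusting by Benjamini-Hochberg over 17905 genes at a 0.05 threshold. A prior count of 2 was used for log2 CPM. Standard errors divide the unshrunk coefficient by the square root of F. Alternatives were DESeq2 1.42.0, limma 3.58.1, 3 other scalings, 2 other filters, 2 other dispersion fits, a replicate block and each library left out.

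The members and lists were chosen with earlier results of these data known. Besides HB34, the members and LOX2, each list gives its called genes (up to 4) or else the gene with the smallest p. ARR16, BRM, TPL, TIE1, TCP14 and KNAT6 fall outside this rule and were added after their values were seen.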

Additional observations from a re-analysis of the deposited data

How the results depend on the processing

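The count of members called was 0 in each direction under all 16 alternatives. Over all genes the counts were 1651 higher and 1010 lower with DESeq2, and 2 higher and 3 lower with a replicate block. Leaving out 1 library gave 1 to 853 higher and 2 to 503 lower; without WT replicate 1 they were 1 and 2, without WT replicate 2 1 and 3, and without hb34 replicate 3 274 and 115. Of the genes in the other lists, 2 were called higher and 1 lower; the counts were 7 and 5 with DESeq2, 1 and 2 with upper quartile scaling, 1 and 1 without a filter, 0 and 1 with limma-voom, 0 and 0 with the block, and 0 to 2 in each direction with 1 library left out. No label says what the replicate numbers stand for. Deviations of same-numbered libraries correlated at -0.10, -0.11 and -0.26, and 0 of 6 libraries correlated best with its own number. With 3 libraries per group these values cannot show whether same-numbered libraries belong together. The block called 0 members.

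Some log2 fold changes changed sign. TCP2 and TCP10 had log2 fold changes of 0.014 and 0.013 without hb34 replicate 2, and with each library left out in turn they ran from -0.17 to 0.014 and from -0.30 to 0.013. Those of TCP4, GRF1 and AIL5 ran from -0.26 to 0.19, -0.33 to 0.24 and -0.59 to 1.00 in the same way. TCP4 had 0.06 without WT replicate 3 and 0.19 without hb34 replicate 3. GRF1 had 0.00036 with library size only, and 0.03 to 0.24 when WT replicate 2 or 3 or hb34 replicate 2 was left out, and 0.00344 without hb34 replicate 3. AIL5, at 0.50 in the main analysis, had -0.034 with limma-voom and -0.59 without hb34 replicate 2. The cause was not tested. Over the alternatives that gave a value TCP3 ran from -0.75 to -0.20, GRF2 from 0.15 to 0.71, GRF3 from -1.93 to -0.24 and ANT from 0.34 to 0.91. GRF3 had an adjusted p in only 14 of the 16 alternatives. GRF1, GRF2, GRF3, AN3 and ANT had 68 or fewer counts in each library, so counting error adds to the spread between libraries in these genes.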
